A study of Mus musculus with 12 samples.

Results

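The 7SK, 7SL, RNase P, RNase MRP and telomerase RNAs were followed in sequenced total RNA of mouse bone marrow progenitors. Rows of the gene table were taken by symbol (Rn7sk, Rn7s1, Rn7s2, Rpph1, Rmrp and Terc), which gave 7 of 55450 rows because Rmrp has 2. All 7 rows were among the 14346 that passed the filter on low counts. These RNAs were picked because several of them are abundant in this table, so their levels are given as a description without a test.

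Donor-derived cells lacking lineage markers and carrying the receptor Kit had been sorted from mice that received competitive marrow transplants. The 12 libraries carry 4 genotype labels with 3 libraries each: WT, Tet2 KO (written Tet2KO below), Id1 KO (Id1KO) and Tet2 KO + Id1KO (dKO). Tet2 encodes an enzyme that oxidises methylated cytosine in DNA, and Id1 encodes an inhibitor of DNA binding by bHLH factors. How the null alleles were made, and the age and strain of the mice, are not given in the sources used here. The libraries of each genotype share a single sample number with differing suffixes, so they may be repeat libraries of 1 cell sample, and p-values measure only the spread between these libraries.

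All of these RNAs work as the core of an RNA and protein particle, and most are short, folded transcripts of RNA polymerase III. 7SK holds the kinase P-TEFb in an inactive state and thereby restrains elongation by RNA polymerase II. 7SL is the scaffold of the signal recognition particle, which brings ribosomes making secreted and membrane proteins to the endoplasmic reticulum. RNase P RNA, from Rpph1, is the catalytic RNA that trims the 5′ end of transfer RNA precursors. Its relative RNase MRP RNA, from Rmrp, shares most of its protein subunits and acts in ribosomal RNA processing. Terc carries the template from which telomerase copies telomere repeats, and unlike the others it is made by RNA polymerase II.

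The sequences bear on how the counts can be read, so annotated RNAs are shown as GENCODE M21 gives them on GRCm38, 5′ to 3′ on the strand of the gene. Rn7sk (ENSMUSG00000065037.1, chr9:78175303-78175633, minus strand, 331 bases) overlaps no other annotated gene and is shown over bases 1 to 300. Capitals mark its 3 GATC runs, at bases 13 to 16, 42 to 45 and 64 to 67. GATC is a motif of the 5′ hairpin to which HEXIM proteins bind, and whether each run lies in that hairpin was not examined.
Rn7sk: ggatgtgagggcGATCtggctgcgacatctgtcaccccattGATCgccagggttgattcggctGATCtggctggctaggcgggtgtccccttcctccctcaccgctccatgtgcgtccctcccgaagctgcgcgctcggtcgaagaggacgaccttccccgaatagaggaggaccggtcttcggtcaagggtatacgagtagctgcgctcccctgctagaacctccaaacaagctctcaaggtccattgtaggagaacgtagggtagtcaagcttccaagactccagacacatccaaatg

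Rn7s1 (ENSMUSG00000099021.1, chr12:69159295-69159594, plus strand) and Rn7s2 (ENSMUSG00000099250.1, chr12:69361182-69361481, minus strand) are both 300 bases long and their annotated sequences were identical over all 300 bases. A read from inside the RNA therefore cannot be assigned to a copy, and the sum of both rows is used as 7SL.

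Rpph1 (ENSMUSG00000092837.1, chr14:50807449-50807767, minus strand, 319 bases) overlaps the first part of the protein-coding gene Ccnb1ip1 on the same strand and is shown over bases 1 to 300. Capitals mark the 233 bases, 36 to 268, that also occur in a Ccnb1ip1 transcript. Ccnb1ip1 held only 264.5 estimated counts over the 12 libraries, or 0.0139% of the count of Rpph1.
Rpph1: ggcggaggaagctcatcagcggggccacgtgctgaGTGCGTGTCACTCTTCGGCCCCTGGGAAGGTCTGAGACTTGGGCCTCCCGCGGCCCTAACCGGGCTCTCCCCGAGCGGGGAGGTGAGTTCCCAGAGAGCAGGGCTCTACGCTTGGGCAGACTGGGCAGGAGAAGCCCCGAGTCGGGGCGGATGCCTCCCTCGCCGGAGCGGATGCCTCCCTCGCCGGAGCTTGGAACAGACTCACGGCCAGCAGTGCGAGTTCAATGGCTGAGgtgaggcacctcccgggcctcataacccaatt

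Rmrp is present as a ribozyme row (ENSMUSG00000088088.1, chr4:43492788-43493058, 271 bases) that lies wholly inside a lincRNA row (ENSMUSG00000115420.1, chr4:43492783-43493063, 281 bases) on the minus strand. Capitals mark the 10 bases that only the longer row holds, 5 at each end. Both rows overlap Ccdc107 on the opposite strand, and whether the counting used strand is not given in the sources used here. Ccdc107 held 3309 counts over the 12 libraries against 497156 for the ribozyme row and 75513 for the lincRNA row.
Rmrp: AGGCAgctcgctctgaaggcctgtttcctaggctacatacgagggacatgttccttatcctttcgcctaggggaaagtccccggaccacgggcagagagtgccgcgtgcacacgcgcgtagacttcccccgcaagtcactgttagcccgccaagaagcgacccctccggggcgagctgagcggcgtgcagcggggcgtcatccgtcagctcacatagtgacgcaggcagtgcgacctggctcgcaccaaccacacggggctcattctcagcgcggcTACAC

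Terc (ENSMUSG00000064796.1, chr3:96414437-96414859, minus strand, 423 bases) is shown over its first 150 bases. Capitals mark CTAACCC at bases 29 to 35, the template run, whose reverse complement GGGTTAG lies within the telomere repeat.
Terc: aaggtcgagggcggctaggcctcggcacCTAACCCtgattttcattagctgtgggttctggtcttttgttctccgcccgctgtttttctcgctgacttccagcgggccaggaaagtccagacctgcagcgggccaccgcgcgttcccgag

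Other annotated transcripts similar to Rn7sk and 7SL were assigned few counts. Only GENCODE M21 transcripts were searched, so copies outside the annotation were not assessed. These counts also rest on how the counting program divided reads between similar sequences. The 5 genes at least 95% identical to Rn7sk over 100 bases or more held 0.0726% of its count, most of it in Gm24447 with 3020 counts. The 4 such copies of 7SL other than the pair itself held 796.5 counts together.

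The libraries held 15706407 to 19959183 estimated counts. In WT libraries Tet2 was at 99.3 ± 2.20 CPM (CPM, the count scaled to the library size after TMM; mean ± SD, n = 3 here and below), and in Tet2KO libraries at 130 ± 2.51. Id1 was at 1.47 ± 0.268 CPM with the WT label and at 3.96 ± 0.342 with Id1KO. It was as high with the other null labels, at 3.86 ± 0.421 CPM in Tet2KO and 3.93 ± 0.501 in dKO. Since a null label went with no drop of the gene it names, genotype names below stand for library labels. All 7 progenitor markers examined reached 5 CPM in at least 1 library, with Kit between 314 and 377 CPM in every library. Of 13 markers of mature lineages 4 reached 5 CPM, among them Itgam, while Cd3e and Ly6g stayed below 0.13 CPM. Summed over the lineage markers the level was 65.4 CPM for WT, 54.5 for Tet2KO, 61.6 for Id1KO and 68.3 for dKO. Summed over the 7 progenitor markers it was 11720 to 11770 CPM for WT, 12900 to 13140 for Tet2KO, 9803 to 10550 for Id1KO and 9721 to 10490 for dKO. Like Rn7sk below, this second sum was lower in all 6 libraries with the Id1 label than in all 6 without it. Most of this sum was Mpo, at 9910 CPM for WT, 11100 for Tet2KO, 8430 for Id1KO and 8510 for dKO. Kit, Cd34, Flt3 and Cebpa were also lower on average in Id1KO than in WT. Myb and Gata2 were higher, at 892 against 879 CPM and 93.9 against 80.5. The part of either sum in the results was not tested.

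Together the 7 rows took 8.48% ± 0.134 of all counts in the libraries labelled WT. They took 5.84% ± 0.0677 in Tet2KO, 6.01% ± 0.256 in Id1KO and 6.11% ± 0.530 in dKO. Every WT library, at 8.36% to 8.62%, was above every library with a null label, of which the highest was at 6.45%. Within dKO, replicate 2 was apart from its companions, at 5.50% against 6.45% and 6.38%. Rn7sk was the row with the most counts of all 55450 rows, with 2.39% of the counts of the 12 libraries. Rn7s2 ranked 2 with 2.25%, Rpph1 ranked 5 with 0.888% and Rn7s1 ranked 7 with 0.867%. The Rmrp ribozyme row ranked 19, the Rmrp lincRNA row ranked 410 and Terc ranked 7312. In total RNA of a mixed population, fewer cells of a type and less RNA per cell cannot be told apart, and a share moves with everything else in the library.

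**Figure D1:**
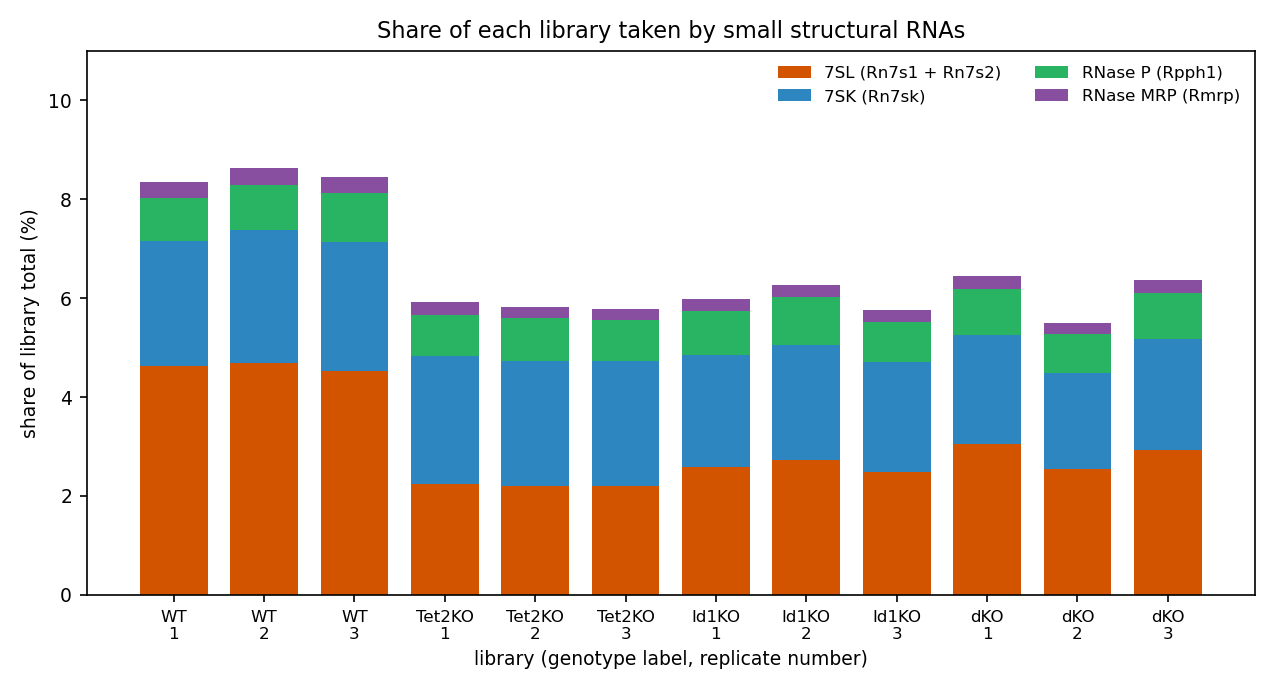
Share of all estimated counts taken by each small structural RNA, in percent, stacked for each of the 12 libraries and grouped by genotype label. The WT libraries reach 8.36% to 8.62% and all others stay at or below 6.45%, with 7SL making up most of the difference. Terc is too rare to be drawn.

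Per kilobase of annotated RNA, the level in WT was 158340 CPM for 7SL, 80856 for Rn7sk, 29749 for Rpph1, 12341 for Rmrp (both rows) and 58.9 for Terc. In Tet2KO the same order began with Rn7sk at 76378 CPM per kilobase, followed by 7SL at 73047. In Id1KO and dKO 7SL was again above Rn7sk, at 86284 against 67821 and 93959 against 63641.5. By this measure, which adjusts for annotated length only, the leading RNA was 7SL in the libraries of 3 labels and 7SK in those labelled Tet2KO.

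7SL, the scaffold of the signal recognition particle, differed most between the labels. Its level was 47729, 48255 and 46522 CPM in the 3 WT libraries and 22267, 21747 and 21728 in the Tet2KO libraries. Id1KO libraries had 25716, 27235 and 24706 CPM, and dKO libraries 30300.1, 24955 and 29308. The WT and Tet2KO libraries each formed a separate group that no other library entered, while Id1KO and dKO overlapped through dKO replicate 2.

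Against WT, 7SL fell in all 3 null labels. It was 53.8% lower in Tet2KO (log2 fold change -1.11 ± 0.05 SE, edgeR adjusted p = 1.05e-12). In Id1KO it was 45.3% lower (log2 -0.87 ± 0.05, adjusted p = 1.18e-10), and in dKO 40.6% lower (log2 -0.75 ± 0.05, adjusted p = 8.29e-10). The level in dKO was higher than in Tet2KO, by 0.36 ± 0.05 on the log2 scale (adjusted p = 1.46e-05). The difference between dKO and Id1KO was 0.12 ± 0.05 and did not pass the threshold (adjusted p = 0.0869). Without dKO replicate 2 it was 0.20 (adjusted p = 0.000101), and without Id1KO replicate 2 it was 0.16 (adjusted p = 0.0471), both past the threshold.

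The effect of the Id1 label thus went in opposite directions with and without the Tet2 label. The interaction, which is the change from Tet2KO to dKO minus the change from WT to Id1KO, was 1.23 ± 0.07 on the log2 scale for 7SL (adjusted p = 8.9e-11). It stayed between 1.18 and 1.31 when any single library was left out.

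**Figure D2:**
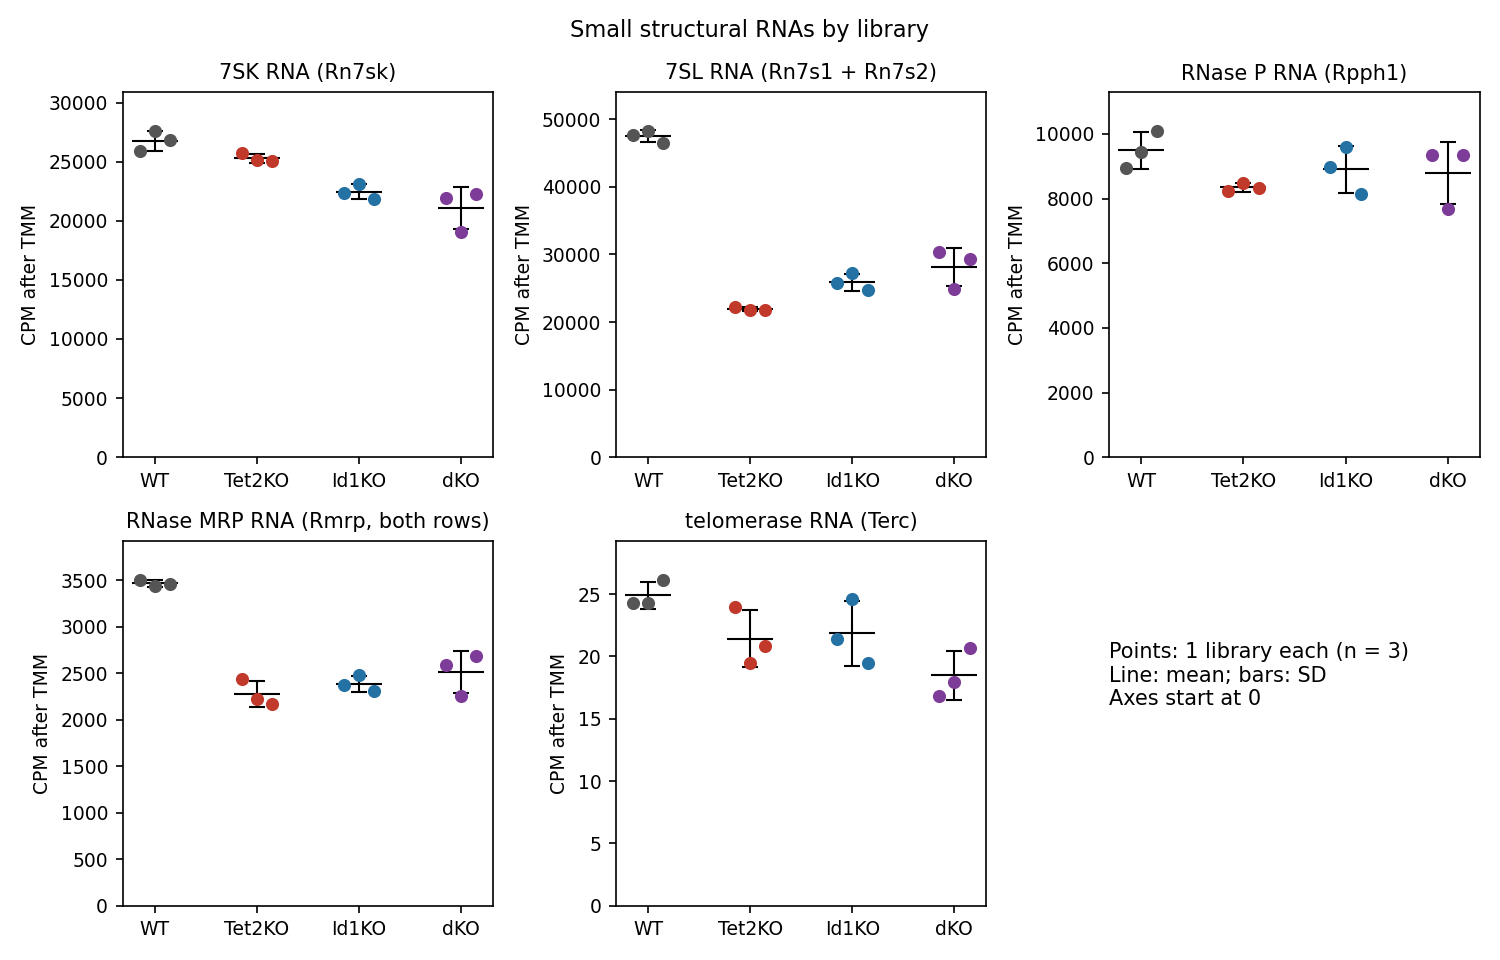
Level of each small structural RNA in CPM, 1 panel per RNA on a linear axis starting at 0, with 1 point per library and bars at the mean ± SD of 3 libraries per genotype label. For 7SL the WT points lie between 46522 and 48255 CPM and every other point at or below 30300.1, while for Rpph1 neighbouring labels in the order WT, Id1KO, dKO and Tet2KO overlap.

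The split of 7SL between its rows rests on how the counting program divided reads between identical sequences. Rn7s1 held 28.9% ± 2.70 of the sum for WT, 29.1% ± 1.38 for Tet2KO, 27.9% ± 1.49 for Id1KO and 24.5% ± 1.80 for dKO. For Rn7s1 the level was 13713 ± 1186 CPM under the WT label and 6380 ± 218 under Tet2KO, and Rn7s2 at 33789 ± 1663 and 15534 ± 517. Both rows were lower than in WT under every null label, by -1.10, -0.92 and -0.996 for Rn7s1 and by -1.12, -0.86 and -0.66 for Rn7s2 on the log2 scale in Tet2KO, Id1KO and dKO. They parted in dKO against Tet2KO, where Rn7s2 was higher by 0.46 ± 0.06 (adjusted p = 4.55e-06) and Rn7s1 by 0.11 ± 0.07 (adjusted p = 0.245). Which copy the reads came from cannot be told apart by the annotated sequence.

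Rmrp, the RNase MRP RNA, was the other member with a clear gap between WT and the rest. Both rows together were at 3507, 3438 and 3458 CPM in WT. The Tet2KO libraries had 2439, 2227 and 2170.06 CPM, the Id1KO libraries 2370.26, 2481 and 2310.1, and the dKO libraries 2592, 2257 and 2684. All 3 WT libraries were above all 9 others, and the 3 null labels overlapped each other.

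Rmrp was 34.1% lower in Tet2KO than in WT (log2 -0.60 ± 0.05, adjusted p = 1.1e-08). It was 30.9% lower in Id1KO (log2 -0.53 ± 0.05, adjusted p = 1.82e-07) and 27.5% lower in dKO (log2 -0.46 ± 0.05, adjusted p = 7.38e-07). The interaction was 0.67 ± 0.07 (adjusted p = 1.03e-06). Between dKO and Tet2KO the difference was 0.14 ± 0.05 (adjusted p = 0.0397). That call was lost with DESeq2 (adjusted p = 0.131), with only the libraries compared (0.0619) and without any of WT replicate 3 (0.0503), Tet2KO replicate 2 (0.14) or 3 (0.191), Id1KO replicate 1 (0.0529) and dKO replicate 1 (0.139) or 3 (0.234). Both Rmrp rows were lower than WT, the ribozyme row by -0.58, -0.52 and -0.43 and the lincRNA row by -0.77, -0.68 and -0.70 in Tet2KO, Id1KO and dKO. The lincRNA row held 14.3% ± 0.644 of the sum in WT and 12.1% ± 0.260 in dKO, without overlap.

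Rpph1, the RNase P RNA, had 128291 to 186626 counts per library and differed from WT by at most -0.19 on the log2 scale. Its level was 8949, 9436 and 10085 CPM in WT, and 8219, 8481 and 8340.5 in Tet2KO. Id1KO libraries had 8970.05, 9598 and 8131 CPM and dKO libraries 9345, 7680.41 and 9360.23. Neighbouring labels in the order WT, Id1KO, dKO and Tet2KO all overlapped. Against WT, Tet2KO differed by -0.19 ± 0.06 on the log2 scale (adjusted p = 0.0253), with no overlap between these 6 libraries. This call did not hold with library totals alone as the scale (-0.13, adjusted p = 0.0954) or with DESeq2 (adjusted p = 0.117). It also ended without WT replicate 2 (adjusted p = 0.0588) or 3 (0.15) and without Tet2KO replicate 1 (0.0756), 2 (0.0557) or 3 (0.0733). Id1KO and dKO differed from WT by -0.09 ± 0.06 (adjusted p = 0.345) and -0.11 ± 0.06 (adjusted p = 0.236). When a library was left out they ran from -0.15 to -0.03 and from -0.15 to -0.02, the last without dKO replicate 2, and with no filter both passed (adjusted p = 0.00693 and 0.000356). In the fit with no filter the SE of Rpph1 in Id1KO against WT was 0.0285, where the main fit gave 0.0614. That of Rn7sk in Tet2KO against WT was nearly the same, at 0.0281 in place of 0.0418. Passes of the abundant RNAs with no filter, here and below, thus rest on an SE that hardly differed between them. The rare Terc kept a larger SE with no filter, at 0.0675 in Tet2KO against WT (0.0857 in the main fit) and 0.0665 in Id1KO against WT (0.0844). The interaction for Rpph1 was 0.17 ± 0.09 (adjusted p = 0.216). Without dKO replicate 2 the interaction was 0.25 (adjusted p = 0.0144), and dKO against Tet2KO was 0.16 (adjusted p = 0.0221).

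Because RNase P and RNase MRP share most subunits, the ratio of their RNAs was computed in each library. There were 0.366 ± 0.0245 Rmrp counts per Rpph1 count for WT, 0.273 ± 0.0205 for Tet2KO, 0.269 ± 0.0135 for Id1KO and 0.286 ± 0.00831 for dKO. The lowest WT library, at 0.343, was above the highest of the 9 others, at 0.297.

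Rn7sk, the RNA that holds P-TEFb inactive, followed the Id1 label. Its level was 25886, 27583 and 26820 CPM in WT and 25697, 25107 and 25039 in Tet2KO. In Id1KO it was 22355, 23120.0 and 21871 CPM, and in dKO 21933, 19036 and 22228. All 6 libraries with the Id1 label lay below all 6 without it, and Id1KO and dKO overlapped. The fall with the Id1 label was already known when the RNAs were chosen, so it is described without a p: the log2 fold change was -0.25 ± 0.04 for Id1KO against WT, -0.26 ± 0.04 for dKO against Tet2KO and -0.35 ± 0.04 for dKO against WT. Without dKO replicate 2 the change from Tet2KO to dKO was -0.20. The interaction, which sets the change from Tet2KO to dKO against that from WT to Id1KO, was -0.01 ± 0.06. The Tet2 label itself moved Rn7sk by -0.08 ± 0.04 against WT (adjusted p = 0.142) and by -0.09 ± 0.04 in dKO against Id1KO (adjusted p = 0.136). The first of these passed the threshold when only the libraries compared were fitted (adjusted p = 0.00849), with no filter (0.00654) and without dKO replicate 2 (0.0206). The WT and Tet2KO libraries did not overlap in CPM but did as shares of the library. The second passed with no filter (adjusted p = 0.00803) and was -0.03 without dKO replicate 2.

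The ratio of 7SL to 7SK, which needs no scaling between libraries, separated all 4 labels. There were 1.78 ± 0.0592 counts of 7SL per Rn7sk count for WT, 0.867 ± 0.000842 for Tet2KO, 1.15 ± 0.0243 for Id1KO and 1.34 ± 0.0387 for dKO. The ranges, 1.73 to 1.84, 0.866 to 0.868, 1.13 to 1.18 and 1.31 to 1.38, did not overlap, and dKO replicate 2 at 1.31 stayed with its own label. Rn7sk per Rpph1 was 2.83 ± 0.144 for WT, 3.03 ± 0.0864 for Tet2KO, 2.53 ± 0.144 for Id1KO and 2.40 ± 0.0694 for dKO. On this ratio Id1KO (2.41 to 2.69) overlapped both WT (2.66 to 2.92) and dKO (2.35 to 2.48). The full separation of Rn7sk by the Id1 label in CPM thus did not hold relative to Rpph1.

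Terc, the telomerase RNA, was the only member without high abundance and had 265 to 484 counts per library, for which counting alone gives an error of up to 6.14%. Its level was 24.3, 24.3 and 26.2 CPM in WT, and 24.0, 19.5 and 20.8 in Tet2KO. It was 21.4, 24.6 and 19.5 CPM in Id1KO and 16.8, 18.0 and 20.7 in dKO. The WT and dKO libraries did not overlap, and all neighbours in the order WT, Id1KO, Tet2KO and dKO did. Terc was 25.6% lower in dKO than in WT (log2 -0.43 ± 0.09, adjusted p = 0.00169). Tet2KO differed from WT by -0.22 ± 0.09 (adjusted p = 0.0572) and Id1KO by -0.19 ± 0.08 (adjusted p = 0.15). The difference for Tet2KO passed with no filter (adjusted p = 0.00534), with only the libraries compared (0.0234) and without any of Tet2KO replicate 1 (0.0174) and Id1KO replicate 2 (0.0352) or 3 (0.0474). That for Id1KO passed with no filter (adjusted p = 0.0381) and without Id1KO replicate 2 (0.039), and ran from -0.28 to -0.11 when a library was left out. The interaction was -0.02 ± 0.12 (adjusted p = 0.931).

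Counted over the 7 rows, 5 passed the test in Tet2KO against WT (Rn7s1, Rn7s2, Rpph1 and both Rmrp rows), each of them lower, with the limits on Rpph1 given above. Of all genes tested 32.8% passed in this comparison and 16.2% did so as lower. In Id1KO against WT 5 rows passed (Rn7sk, whose fall was known beforehand, Rn7s1, Rn7s2 and both Rmrp rows), again all lower, beside 15.0% of all genes in either direction and 7.77% lower. In dKO against WT 6 rows were lower, all but Rpph1 and again with Rn7sk among them, where 19.2% of all genes passed and 8.97% were lower. In dKO against Tet2KO 3 rows passed, Rn7s2 and the Rmrp ribozyme row as higher and Rn7sk as lower, beside 26.4% of all genes. Nothing is read from the count of Rn7sk in either. The ribozyme row, at 0.15 (adjusted p = 0.022), lost its call with DESeq2 (0.0772) and without Tet2KO replicate 2 (0.0897) or 3 (0.118) or dKO replicate 1 (0.0927) or 3 (0.15). In dKO against Id1KO 1 row passed, Rn7s2 as higher by 0.19 ± 0.05 (adjusted p = 0.0176), beside 19.3% of all genes. This last call was lost with DESeq2 (adjusted p = 0.0979) and without Id1KO replicate 1 (0.0596) or 3 (0.0656) or dKO replicate 1 (0.125) or 3 (0.066). The interaction passed for 4 rows, both 7SL rows and both Rmrp rows, beside 14.5% of all genes. The comparisons against WT share the same 3 WT libraries, and those rows share sequence, so these counts are not independent of each other.

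**Figure D3:**
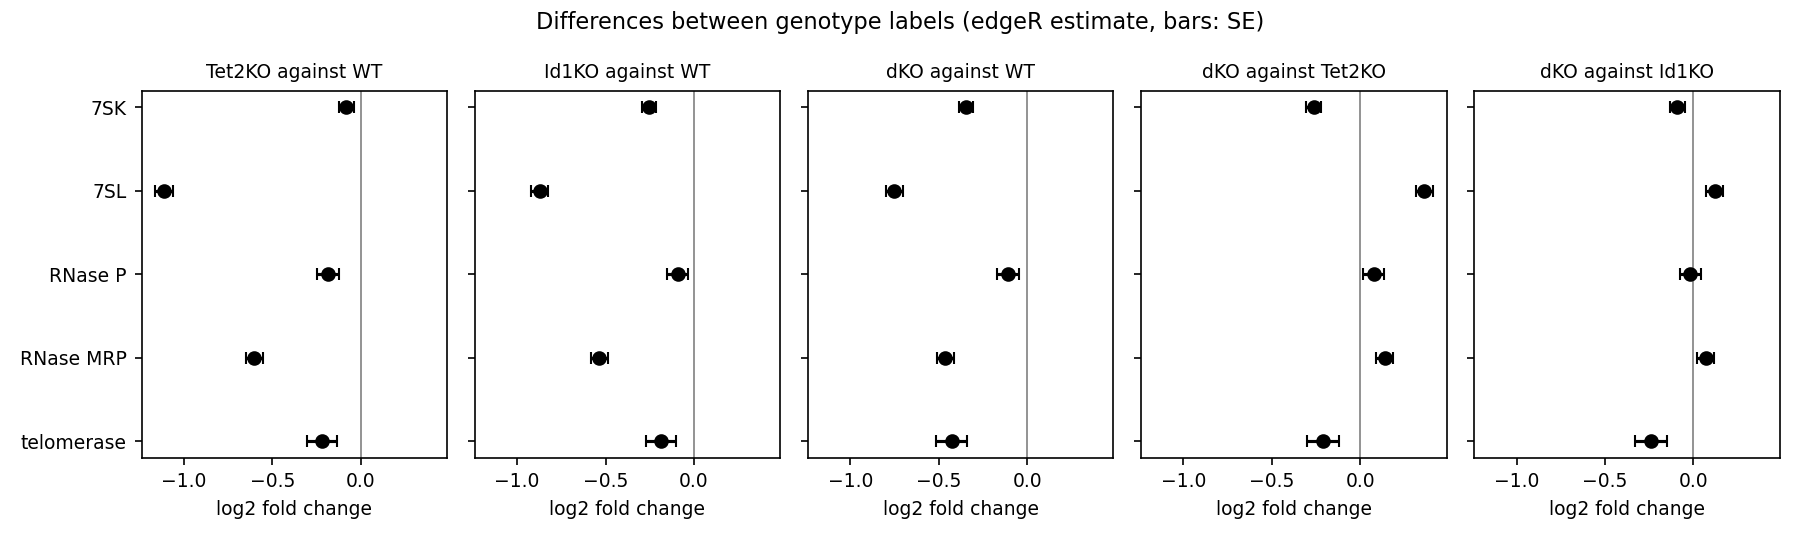
Log2 fold change of each small structural RNA in the 5 comparisons between labels, 1 panel each, with bars of 1 SE from the fit across all genes and a line at 0 (7SL and Rmrp as the sum of their rows). 7SL and Rmrp lie below 0 in all 3 comparisons with WT and above 0 in dKO against Tet2KO, where 7SK and Terc lie below 0.

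Other measures of the libraries also differed, some between WT and the null labels and some in another way. The scaling factor was 0.972 to 0.974 in the WT libraries and 1.004 to 1.02 in the others. With library totals alone, 7SL differed by -1.06 in Tet2KO and -0.82 in Id1KO against WT, and Rmrp by -0.55 and -0.49. Protein-coding rows took 86.9% of counts for WT, 89.7% for Tet2KO, 89.3% for Id1KO and 89.1% for dKO. The mitochondrial ribosomal RNAs mt-Rnr1 and mt-Rnr2 took 1.32% in WT replicate 1 and 0.720% to 0.952% in the other 11 libraries. Gm26917 took 1.14% ± 0.0856 in dKO and 0.779% to 0.814% on average in the other labels. The part of these shares in the results was not tested. Without WT replicate 1 and without each other library in turn, 7SL in Tet2KO against WT stayed between -1.13 and -1.10.

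The remaining small structural RNAs of the table were summed as a comparison. Their 180 rows took 0.185% ± 0.00284 of counts for WT, 0.161% ± 0.00501 for Tet2KO, 0.155% ± 0.00333 for Id1KO and 0.152% ± 0.00488 for dKO. The 150 rows among them named as small nucleolar or Cajal body RNAs took 0.127% ± 0.000434, 0.113% ± 0.00211, 0.105% ± 0.00151 and 0.0996% ± 0.00251. The WT libraries were highest in both sums without overlap. The most abundant were Scarna10 at 360 ± 19.9 CPM in WT and 274 to 334 on average in the other labels, Snora73a at 260.0 ± 13.5 and 157 to 194, and Scarna2 at 226 ± 9.31 and 194 to 222.

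The genes whose log2 CPM followed each RNA most closely over the 12 libraries were found among 9770 genes with a mean of at least 5 CPM. These are descriptions over points that share their genotype labels. For 7SL they were Snora74a (Pearson r 0.954), Alas1 (0.951) and Gdf3 (0.937), and for Rmrp Snora74a (0.955), Alas1 (0.951) and Tex264 (0.935). Snora74a, a small nucleolar RNA that guides pseudouridylation, was at 24.2 CPM for WT, 8.41 for Tet2KO, 8.52 for Id1KO and 9.93 for dKO. For Rn7sk they were Hk3 (0.988), which encodes a hexokinase, and H2-K1 (0.971) and Tap2 (0.966) of antigen presentation. Hk3 was at 371 CPM for WT, 356 for Tet2KO, 320 for Id1KO and 301 for dKO. For Rpph1 they were Comtd1 (0.938), Vars (0.938) and Rplp1 (0.931), and for Terc Scarna2 (0.907), Jund (0.898) and Rpl13 (0.887).

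Genes of the particles in which these RNAs work were read from the same fit. The list for the 7SK particle holds the proteins that bind 7SK and the P-TEFb and elongation factors it regulates, with 23 genes tested. In Tet2KO against WT 6 of them rose and 6 fell, beside 32.8% of all genes called, with a median of 0.01 beside -0.00282 for all genes. For the lists that follow, the share of all genes called was 15.0% in Id1KO against WT, 19.2% in dKO against WT, 26.4% in dKO against Tet2KO and 14.5% in the interaction. Ell2, an elongation factor, fell from 24.1 ± 0.20 to 15.4 ± 1.3 CPM (log2 -0.65, adjusted p = 5.2e-07). Mepce, the enzyme that caps 7SK, was at 55.5 ± 0.85 CPM in WT and rose to 64.8 ± 2.5 in Tet2KO and 68.5 ± 1.4 in Id1KO (log2 0.22 and 0.30, adjusted p = 0.000153 and 1.42e-05). Ccnt1, the cyclin of P-TEFb, rose to 108 ± 2.8 CPM in Id1KO (log2 0.26 against WT, adjusted p = 8.68e-06). Larp7, which protects the 3′ end of 7SK, stood at 79.2 CPM in WT against 71.9 in Tet2KO (log2 -0.14, adjusted p = 0.0152), a call lost with library totals alone (adjusted p = 0.158) and without WT replicate 2 or Tet2KO replicate 2. Hexim1, the inhibitor that 7SK presents to P-TEFb, was at 32.3, 32.7, 36.4 and 34.3 CPM in WT, Tet2KO, Id1KO and dKO.

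In Id1KO against WT, where Rn7sk was lower, 5 of the 23 genes rose and 1 fell (median 0.02). In dKO against Tet2KO 7 rose and 3 fell (median 0.05), with Ell2 at 22.3 CPM (log2 0.53, adjusted p = 1.48e-05) and Aff4, a scaffold of elongation complexes, falling from 127 to 103 CPM (log2 -0.31, adjusted p = 2.55e-06). The fold changes of the list in that comparison ran from -0.31 to 0.53.

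In Tet2KO against WT the genes for the proteins of the signal recognition particle and its receptor had smaller fold changes than 7SL. Of 10 genes tested 2 rose and 3 fell, beside 32.8% of all genes called, and their fold changes ran from -0.18 to 0.19 on the log2 scale, beside -1.11 for 7SL. Srp19, which helps SRP54 bind 7SL, fell from 41.3 ± 1.3 to 36.5 ± 0.96 CPM (log2 -0.18, adjusted p = 0.0057), a call lost with library totals alone. Srp54b was at 60.9 CPM in WT and 73.0 in dKO (log2 0.26, adjusted p = 0.00601). Srp54a was at 101 and 116 CPM (log2 0.19, adjusted p = 0.000308). In Id1KO against WT 1 gene of the list rose and 1 fell, in dKO against WT 2 rose, and in dKO against Tet2KO 2 rose, among them Srp9 (log2 0.13, adjusted p = 0.00646). Srp14, which forms a dimer with Srp9 on 7SL, was at 50.2, 47.0, 48.7 and 46.9 CPM.

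The list of RNase P and RNase MRP subunits has 12 genes in the table, of which 11 were tested, since Rpp25 had at most 5 counts in any library. In Tet2KO against WT 1 rose and 3 fell, beside 32.8% of all genes called, with a median of -0.17 beside -0.00282 over all genes. Pop1, the largest shared subunit, fell from 40.6 to 35.4 CPM (log2 -0.20, adjusted p = 0.00354) and was at 41.9 CPM in dKO (log2 0.24 against Tet2KO, adjusted p = 0.000985). Pop4 rose from 25.2 CPM in WT to 28.7 in Tet2KO, 29.1 in Id1KO and 30.4 in dKO (log2 0.19, 0.21 and 0.27, adjusted p = 0.00881, 0.0086 and 0.000861). In Id1KO and dKO against WT 1 gene of the list rose and none fell. In dKO against Tet2KO 2 rose and none fell, with a median of 0.16. Rpp30, a shared subunit, was 1 of the 2, at 17.4 CPM in Tet2KO and 20.5 in dKO (log2 0.24, adjusted p = 0.00629).

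**Figure D4:**
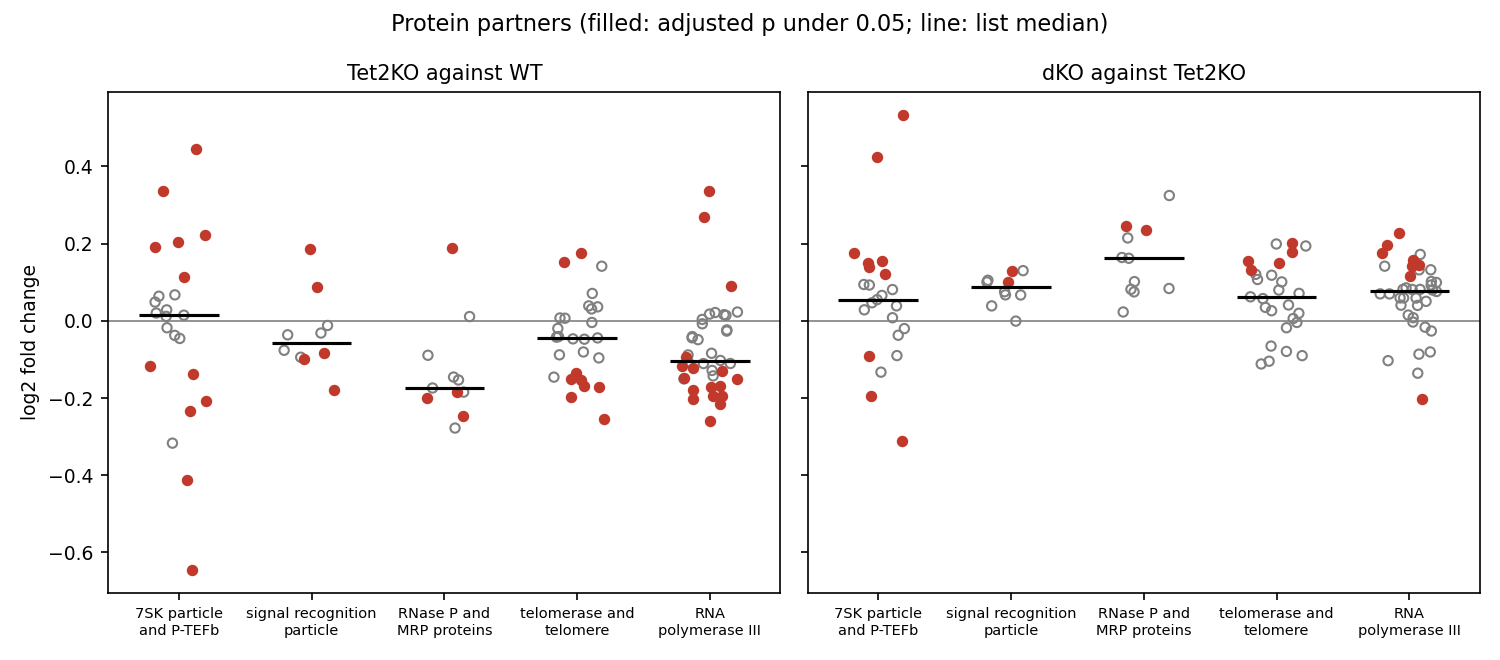
Log2 fold changes of the genes in 5 lists of partner genes, with 1 panel for Tet2KO against WT and 1 for dKO against Tet2KO. Each point is a gene tested, filled where it passed the threshold, and bars are list medians. The RNase P and MRP list has a median of -0.17 for Tet2KO against WT and 0.16 for dKO against Tet2KO.

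The telomerase and telomere list had 27 genes tested. In Tet2KO against WT 2 rose and 7 fell (median -0.04), beside 32.8% of all genes called. In Id1KO against WT 1 rose and 1 fell, beside 15.0% of all genes, and in dKO against WT 1 rose and 2 fell, beside 19.2%. Dkc1, the dyskerin that binds Terc, fell from 241 to 215 CPM in Tet2KO (log2 -0.17, adjusted p = 0.000547), and Tinf2 of the shelterin complex fell from 39.2 to 32.9 (log2 -0.25, adjusted p = 0.000838). Tep1, a telomerase-associated protein, rose from 49.3 to 55.6 CPM in Tet2KO (log2 0.18, adjusted p = 0.00143). Tert, the catalytic subunit, had 16 to 39 counts per library and stood at 1.61, 1.59, 1.77 and 1.47 CPM in WT, Tet2KO, Id1KO and dKO. Wrap53 and Naf1, which take part in the transport and assembly of the telomerase particle, were at 20.2 and 28.3 CPM in WT and 19.6 and 27.4 in Tet2KO.

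The list of RNA polymerase III, its general factors and the factors of its small RNA promoters had 38 genes tested. In Tet2KO against WT 3 rose and 14 fell, beside 32.8% of all genes called and 16.2% called lower, with a median of -0.10 beside -0.00282 over all genes. Pou2f1, which binds the octamer of small RNA promoters, rose from 52.2 to 65.8 (log2 0.34, adjusted p = 5.7e-05). In Id1KO against WT 4 rose and 3 fell, with Snapc4 of the complex that recognises such promoters up from 63.7 to 72.5 CPM (log2 0.19, adjusted p = 0.00482) and Zfp143 down from 29.9 to 25.4 (log2 -0.24, adjusted p = 0.00524). In dKO against WT 2 rose and 3 fell, and in dKO against Tet2KO 7 rose and 1 fell (median 0.08). In the interaction 7 were positive and 1 negative, with a median of 0.09 beside 0.00866 over all genes. No test of a list was made, and no list is called particular from these counts.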

How the data were processed

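Total RNA of donor-derived marrow progenitors was sequenced in 12 libraries, 3 for each of 4 genotype labels, with a stranded kit that removes ribosomal RNA, as the labels' protocols say. The authors deposited a table of estimated counts (expected counts) per gene for 55450 genes, not normalized. Per the submitters' processing notes STAR, RSEM and mm10 were used; versions and the strand setting are not given in the sources used here. All 55450 identifiers matched GENCODE M21, and 4572 rows held values that are not whole. RSEM shares out reads that fit several transcripts, which bears on the identical 7SL copies and the nested Rmrp rows.

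Counts were rounded, filtered by filterByExpr (minimum count 10; 14346 of 55450 rows), scaled by TMM and fitted over all 12 libraries with edgeR 4.0.16 (quasi-likelihood F-tests, two-sided) in R 4.3.3. P-values were adjusted by the Benjamini-Hochberg method over all rows tested, with a threshold of 0.05. With 3 libraries a label, the smallest p of an exact permutation test is 0.1, so none was run. Rn7s1 and Rn7s2 were summed as 7SL, and the Rmrp rows were summed after the table was seen to hold 2. The RNAs, gene lists and tests were chosen with earlier results of these data known. Named partner genes were the core subunits and, per list and comparison between labels differing in 1 gene, the called genes with the highest and lowest fold change at a mean of at least 5 CPM; for each RNA the 3 genes most correlated with it were added. Some items that these rules name are not reported here. Depth was 15706407 to 19959183 counts per library. The counting error given for Terc covers counting alone, while SD and SE include the spread between libraries. SE was the absolute log2 fold change divided by the square root of the F statistic. Copies were sought among GENCODE M21 transcripts, not in the genome, with blast 2.17.0 at 95% identity over at least 100 bp. All 12 pairs of libraries of a label differed by more than sampling noise (chi-square per degree of freedom 1.52 to 5.35), so none was dropped as a duplicate. This check cannot tell repeat libraries of a single cell sample from libraries of separate samples. Alternatives were RLE, upper-quartile and library-total scaling, TMM without small RNAs and mitochondrial genes, DESeq2 1.42.0, no filter, only the libraries compared, a replicate block and leaving out each library. On simulated data for Tet2KO against WT, edgeR recovered 92.5% of 200 genes changed 2-fold with 12 false calls among 14152 genes, and 52.0% at 1.2-fold with 2 among 14171. Every simulated gene had the same spread, and only these 200 changed, all upward in Tet2KO and dKO. The real libraries differ in this, so these rates do not carry over to the calls above.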

Additional observations from a re-analysis of the deposited data

Results flagged for a closer look

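The effect of the Id1 label differed with the Tet2 label, by the interaction term of the edgeR fit, for 7SL and Rmrp. The log2 interaction was 1.23 for 7SL, 1.03 for the Rn7s1 row and 1.31 for the Rn7s2 row. It was 0.67 for the Rmrp rows together, 0.67 for the ribozyme row alone and 0.75 for the lincRNA row. In each of these the level was lower in Id1KO than in WT, while the estimate for dKO was above that for Tet2KO. The rows of a pair share sequence, so these are values of 2 RNAs and not of 6.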

How the results depend on the processing

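The falls of 7SL and Rmrp against WT in all 3 null labels, the interactions of both, the rise of 7SL from Tet2KO to dKO, and the fall of Terc in dKO against WT kept their direction and stayed past the threshold under every alternative and without any library. The number of the 7 rows called in dKO against Tet2KO was 5 with no filter. In dKO against Id1KO it was 0 with DESeq2 and 4 with no filter, and 0 to 2 when a library was left out. 7SL in dKO against Id1KO ran from 0.0677 to 0.202 when a library was left out. It passed with no filter (0.11, adjusted p = 0.000621), where its SE was 0.0275 in place of 0.0481 in the main fit. DESeq2 called 1342 genes in the interaction and edgeR 2078. Directions turned only when a library was left out, and only for differences that did not pass. These were the Rmrp lincRNA row in dKO against Tet2KO (-0.0036 to 0.17) and against Id1KO (-0.0854 to 0.0636), Rpph1 in dKO against Id1KO (-0.0797 to 0.0703), and the interactions of Rn7sk (-0.055 to 0.0522) and Terc (-0.117 to 0.0739). Of 71 called values of named partner genes, 40 passed in every fit. With library totals alone the median of all genes in Tet2KO against WT was 0.0525, in place of -0.00282.

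Whether the suffix numbers of the titles pair the libraries could not be settled, since deviations were taken from means of 3 libraries. Same-numbered libraries of different labels had correlations of -0.282 to 0.307 in their deviations (median 0.0797), 7 of 18 above 0.1. Libraries of different number had correlations of -0.321 to 0.454 (median -0.0372), 9 of 36 above 0.1. Of 12 libraries 6 correlated best with their own number. With the replicate block 7SL was at -1.11 in Tet2KO against WT, the number of rows called did not change in any of the 6 comparisons, and 4523 genes were called in Tet2KO against WT in place of 4699. The cause of the changes named here was not tested.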
